A study of Homo sapiens with 4 samples.

Results

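Respiratory complex I is represented in these RNA-seq data by 51 of the 60623 genes in the count tables. They are every gene whose symbol has the form of a nuclear complex I gene (NDUFA, NDUFB, NDUFC, NDUFS, NDUFV, NDUFAB or NDUFAF followed by a number), with ACAD9, ECSIT, TMEM126B, TIMMDC1 and FOXRED1 added by name. The 51 genes are 37 structural subunits, 13 assembly factors and NDUFA4, which was named as a complex I subunit and is now placed in complex IV. The rule used names alone and no measured value, but it was chosen with earlier results of these data known. The study had reported oxidative phosphorylation among the top gene sets enriched in its downregulated genes. All 51 genes had enough counts for a test. The samples were labelled as BICR10, an established head and neck cancer line, and were transduced with lentivirus that carried either a control hairpin (shControl, 2 libraries) or a hairpin against YEATS2 (shYEATS2, 2 libraries), and selected with puromycin. YEATS2 is a histone reader that binds acetylated and crotonylated lysines. All libraries came from this one line, no untransduced cells were sequenced, and which of the YEATS2 hairpins each shYEATS2 library carried is not given in the sources used here. The study describes its replicates in general as biological, and the labels do not say whether the libraries of a group came from separate cultures, so p-values measure the spread between these libraries, part of which may be technical.

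Complex I takes electrons from NADH, passes them along a chain of iron-sulphur clusters to ubiquinone, and pumps protons across the inner mitochondrial membrane. Its core subunits carry out this chemistry and have bacterial relatives, while its accessory subunits surround the core. Those of the core that lie in the membrane are encoded by mitochondrial DNA, and the rest are nuclear. The complex is L-shaped, with an N module that oxidises NADH and a Q module that reduces ubiquinone in the arm that reaches into the matrix, and a proximal and a distal part of the membrane arm. Assembly factors help to build the modules and join them, and are not part of the finished enzyme.

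Nuclear genes of the respiratory chain are known to carry promoter motifs for the factors NRF1, GABP (of the ETS family) and YY1, so the members' promoters were searched for the letters GCGCANGCG (NRF1), CCGGAAG (ETS) and AAGATGGCG (YY1) on both strands. The promoters were windows of 300 bases from RefSeq (GRCh38.p14), 250 before and 50 after the start of the gene, and were found for 43 of the 51 members. Matches to different motifs did not overlap in any member. The windows of 29 bases shown here are matches upstream of the start, with the motif in capitals, from the core subunits of the Q module that fell most (NDUFS3 and NDUFS7), from NDUFS6, from a subunit with several NRF1 matches (NDUFB4), from a core subunit that was not called (NDUFS1) and from an assembly factor that rose (NDUFAF4). Each is written 5′ to 3′ on the strand of its gene. The starts are those of RefSeq. For NDUFS3 and NDUFS7 GENCODE 44, used for the gene positions given further on, starts the gene further upstream, so their windows lie inside its gene models.
NDUFS3, ETS, chr11:47578962-47578990, plus strand: ggaacctccgCTTCCGGctccacgtccgc
NDUFS3, ETS, chr11:47578981-47579009, plus strand: ccacgtccgcCCGGAAGaagatctgctgc
NDUFS7, NRF1, chr19:1383823-1383851, plus strand: ttccggtttcCGCATGCGCtccgagccgc
NDUFS6, NRF1, chr5:1801351-1801379, plus strand: cagaagccgtGCGCATGCGttagcgctaa
NDUFB4, NRF1, chr3:120596263-120596291, plus strand: ctctgctaacGCGCAGGCGcacttcctga
NDUFS1, ETS, chr2:206159583-206159611, minus strand: gctggggccaCTTCCGGcggaactgcggg
NDUFAF4, ETS, chr6:96898020-96898048, minus strand: ccacctcccgCCGGAAGcggccctcgtgg

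The NRF1 letters were found in 9 of the 32 structural subunits with a promoter sequence and in 2 of the 11 assembly factors, beside 8.05% of 27305 promoters in all. The 27305 promoters were not matched to the members in expression or base composition. The structural subunits with a match were NDUFS6, NDUFS7, NDUFA3, NDUFA8, NDUFA9, NDUFA11, NDUFA12, NDUFB4 and NDUFAB1, and all 9 are among the 24 subunits with a promoter sequence that were lower in shYEATS2. None of the 8 structural subunits with a promoter sequence that were not called had a match. Of the 32 with a promoter sequence, 24 were called lower, with or without a match. Among the 8, NDUFV2, NDUFA7, NDUFA13, NDUFB1 and NDUFB8 had log2 fold changes with standard errors of 0.31 to 0.43. A fall the size of the median of all structural subunits (log2 fold change −0.37) would not be called in these genes. The assembly factors with a match were ACAD9 and NDUFAF5. The ETS letters were found in 5 of the 32 structural subunits and 2 of the 11 assembly factors, beside 10.7% of all promoters. The YY1 letters were found in 5 structural subunits and in 0 assembly factors, beside 1.85% of all promoters. Members lower in shYEATS2 and members that were not called both held ETS and YY1 matches. These matches describe letters in a window and were not tested against the expression values.

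The 4 libraries held 11334133 to 47297970 counts on genes, and both shYEATS2 libraries were shallower than both shControl libraries, so depth and knockdown cannot be told apart by design. YEATS2 (chromosome 3, 183697797 to 183812624, GRCh38) was at 66.1 and 66.7 CPM (counts scaled to a common library size by the TMM method) in shControl and at 29.2 and 29.1 CPM in shYEATS2, which is −1.19 on the log2 scale (standard error, SE, 0.08). Markers of other cells were summed as a check of the label. The 7 squamous epithelial markers came to 19.3 to 21.7 CPM in shControl and 7.14 to 7.30 CPM in shYEATS2. Of the 5 squamous markers tested 3 fell and 1 rose. The keratin KRT5, at 16.4 and 15.0 CPM in shControl and 1.03 and 1.36 CPM in shYEATS2, made up most of the sum in shControl, and CDH1, the epithelial cadherin, rose from 0.353 and 0.318 CPM to 2.84 and 2.12 CPM. The 8 fibroblast markers came to 8787 to 8837 CPM in shControl and 3928 to 4199 CPM in shYEATS2. Of the 7 fibroblast markers tested 6 fell and 1 rose, and COL3A1, a fibrillar collagen, fell from 1043 and 1026 CPM to 242 and 227 CPM (log2 fold change −2.14, SE 0.06). The marker that rose was VIM, at 1550 and 1592 CPM in shControl and 1850 and 1715 CPM in shYEATS2. The marker not tested was THY1, with 13 and 3 counts in shControl and 4 and 0 counts in shYEATS2. Squamous markers this low beside a fibroblast sum this high, already in shControl, go against a label of epithelial cancer cells. THY1 had almost no part in that sum. The name BICR10 is used here as the labels give it. The 3 endothelial markers came to 1.32 to 1.76 CPM in shControl and 1.58 to 2.21 CPM in shYEATS2, with CDH5 at no more than 3 counts in a library. The 3 leukocyte markers came to at most 0.170 CPM in any library, and CD3E and CD68 were at no more than 3 counts. The part that depth or the change in these markers has in the results on complex I was not tested, except where a value is given beside a result.

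Structural subunits of complex I were lower after YEATS2 knockdown, and assembly factors were not lower as a group. Of the 37 structural subunits, 28 fell, 0 rose and 9 were not called at an adjusted p under 0.05 in edgeR's quasi-likelihood test over all 17058 tested genes. At an adjusted p under 0.05, 23.6% of all tested genes were called lower and 22.6% were called higher. For tested protein-coding genes the shares were 28.2% and 24.3%. The median shControl level was 88.5 CPM for structural subunits, 33.3 CPM for assembly factors and 13.7 CPM for all tested genes. Calls come more easily at higher counts, and the part that level has in these shares was not tested. Of the 13 assembly factors, 2 fell, 2 rose and 9 were not called. The median log2 fold change was −0.37 for structural subunits (quartiles −0.54 and −0.23), −0.05 for assembly factors (quartiles −0.16 and 0.15) and −0.01 for all tested genes (quartiles −0.31 and 0.32). The medians of structural subunits and assembly factors thus differed by −0.32, a description of 1 fit for which no test was made. In bulk RNA, fewer cells of a type and less RNA per cell cannot be told apart.

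Values in single libraries gave the same order. For 30 structural subunits the higher shYEATS2 value was under the lower shControl value. Both shYEATS2 values lay above both shControl values for 2 (NDUFS1 and NDUFB9), and the groups overlapped for 5, where 36.3% of all tested genes lay below and 35.3% lay above. Among the assembly factors 5 lay below, 5 above and 3 overlapped. The CPM of the 37 structural subunits summed to 4083 and 3731 in shControl and to 3094 and 3156 in shYEATS2. The CPM of the 13 assembly factors summed to 497 and 504 in shControl and to 500 and 493 in shYEATS2. The structural sum was therefore separated between the groups, and the sum of the assembly factors overlapped. With each shYEATS2 library set against each shControl library, the structural median ranged from −0.43 to −0.24 on the log2 scale and that of the assembly factors from −0.07 to 0.04, and the difference between them ranged from −0.39 to −0.23. Scaling by library totals alone moved the median of all genes to 0.13, the structural median to −0.23 and the assembly median to 0.09. Relative to all genes, the structural median was −0.36 under both scalings. A change of scaling shifts all genes nearly alike, so this value could hardly differ between them.

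**Figure D1:**
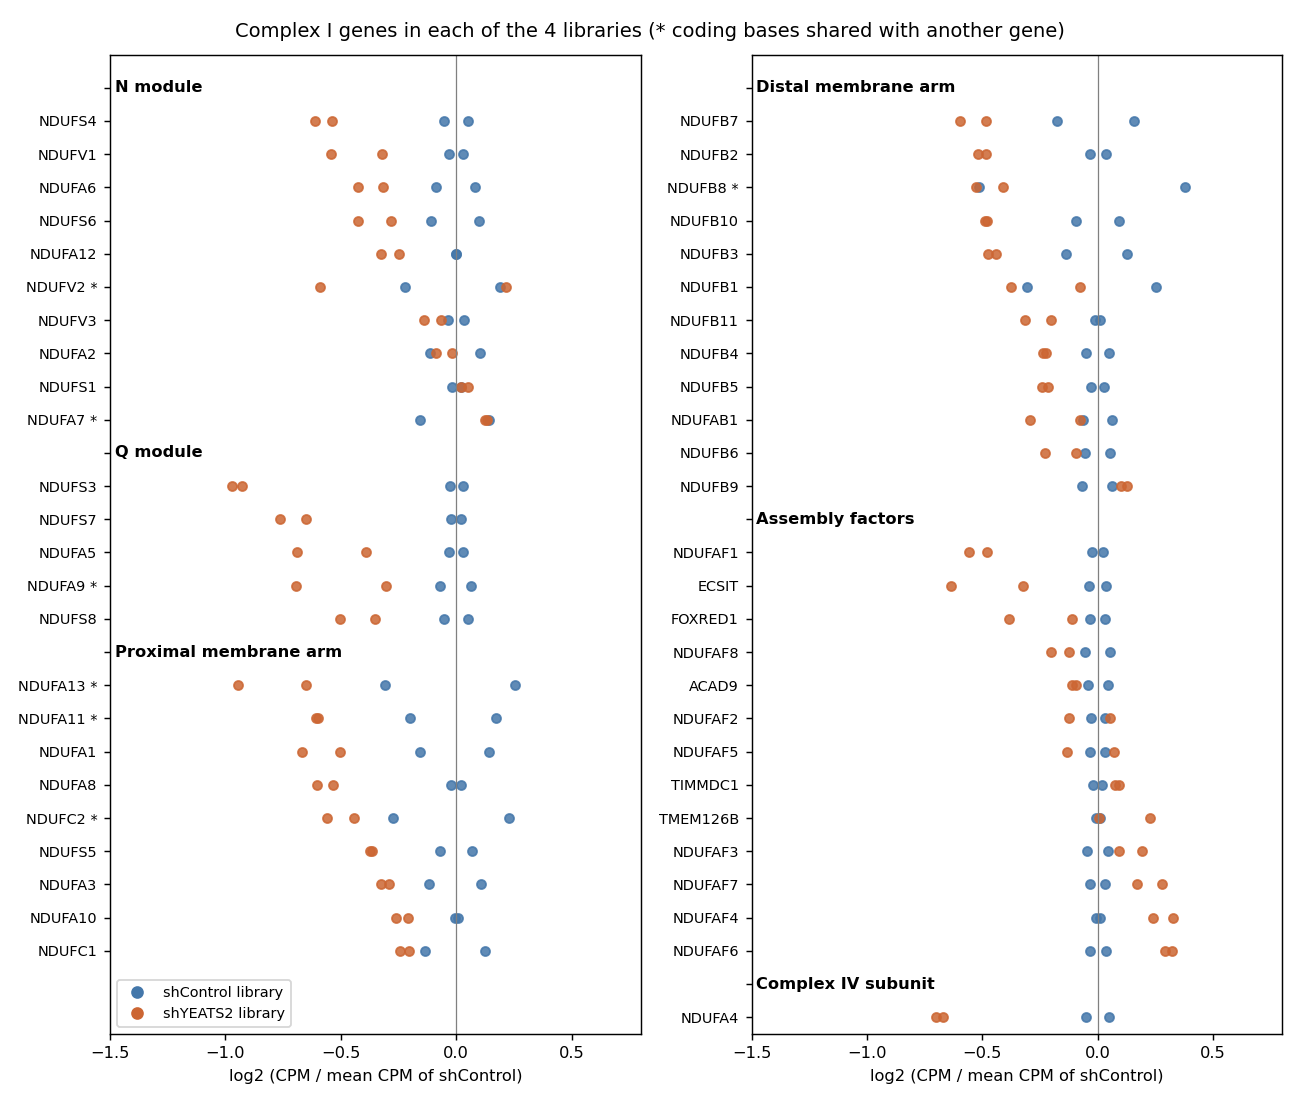
Level of 50 of the 51 genes in each library, as log2 of its CPM over the mean CPM of the 2 shControl libraries (horizontal axis), by module and ordered by fold change within it (vertical axis). Blue points are shControl libraries and orange points are shYEATS2 libraries, and an asterisk marks the 7 subunits whose coding bases lie mostly on another gene as well. The orange points sit to the left of the blue points for every gene of the Q module that is drawn and all 9 of the proximal membrane arm, and on both sides of them for the assembly factors.

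Structural subunits also have shorter transcripts than assembly factors. The median length of the MANE Select transcript was 691 bases for structural subunits, 1795 for assembly factors and 2883 for all tested genes. Short protein-coding genes were lower in general. The 168 tested protein-coding genes with transcripts of up to 600 bases, members included, had a median log2 fold change of −0.17, and 39.3% of them were called lower. The 12 structural subunits of that length had a median of −0.41. With offsets for length and GC content in the fit, 29 structural subunits fell, their median was −0.34, and it differed from that of the assembly factors by −0.30.

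The core subunits that hold the redox centres are the place to start. NDUFV1 (chromosome 11), which binds the NADH and the flavin, was at 145 and 139 CPM in shControl and 114 and 97.6 CPM in shYEATS2 (log2 fold change −0.42, SE 0.07, adjusted p = 2.5e-07). NDUFS1 (chromosome 2), the large subunit that carries iron-sulphur clusters beside it in the N module, was at 113 and 116 CPM in shControl and 119 and 116 CPM in shYEATS2 (log2 fold change 0.04, 95% interval −0.09 to 0.16, adjusted p = 0.67). NDUFV1 was separated between the groups, and NDUFS1 differed by less than the test could resolve. The remaining core subunit of the N module, NDUFV2, had only 37, 41, 16 and 13 counts and its groups overlapped (log2 fold change −0.23, SE 0.41).

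In the Q module the core subunits NDUFS3, NDUFS7 and NDUFS8 fell. NDUFS3 (chromosome 11, 47565336 onward in GENCODE 44), a subunit of the matrix arm without a redox centre, was at 68.4 and 65.7 CPM in shControl and 34.2 and 35.3 CPM in shYEATS2. At a log2 fold change of −0.95 (SE 0.08, 95% interval −1.10 to −0.80, adjusted p = 2.8e-17) it had the largest fall of the 51 genes, to 51.6% of the control level by the fit. PTPMT1 on the same strand covers 16.0% of its exonic bases and 0 of its coding bases. NDUFS7 (chromosome 19), which holds the last cluster before ubiquinone, was at 87.7 and 90.6 CPM in shControl and 56.8 and 52.5 CPM in shYEATS2 (log2 fold change −0.70, SE 0.07, adjusted p = 2.2e-13). An antisense non-coding gene covers 36.1% of the exonic bases of NDUFS7, and another covers 15.3%. Exons of the opposite strand lie on 45.4% of its coding bases. With the strand setting of the counting not given, reads of NDUFS7 and of these genes might not be told apart. NDUFS8 (chromosome 11), another iron-sulphur subunit, was at 93.9 and 87.6 CPM in shControl and 71.2 and 64.1 CPM in shYEATS2 (log2 fold change −0.42, SE 0.07, adjusted p = 6.9e-07). The groups did not overlap for any of these 3 genes.

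By module, all 6 genes of the Q module fell (median −0.54), with the accessory subunits NDUFA5 and NDUFA9 at −0.55 and −0.54, as did 8 of the 9 of the proximal membrane arm (median −0.52) and 9 of the 12 of the distal membrane arm (median −0.25). In the N module 5 of 10 fell (median −0.26), namely NDUFV1, NDUFS4, NDUFS6, NDUFA6 and NDUFA12. The genes of the N module that were not called were NDUFV2, NDUFV3, NDUFS1, NDUFA2 and NDUFA7. Those not called in the membrane arm were NDUFA13, NDUFB1, NDUFB8 and NDUFB9. Of these uncalled genes, NDUFV2, NDUFA7 and NDUFA13 had at most 48 counts in any library, which limits the share called in their modules. Core and accessory subunits had similar shares, with 5 of 7 and 23 of 30 called lower. Differences between modules were not tested.

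Accessory subunits with the largest changes came from several modules. NDUFS4, a small subunit of the N module whose loss causes Leigh syndrome, was at 57.9 and 54.0 CPM in shControl and 36.7 and 38.5 CPM in shYEATS2 (log2 fold change −0.58, SE 0.08, adjusted p = 2.6e-09). NDUFA8, a subunit on the intermembrane face of the proximal arm, was at 105 and 108 CPM in shControl and 73.2 and 69.9 CPM in shYEATS2 (log2 fold change −0.56, SE 0.07, adjusted p = 7.7e-11). Both genes were lower in each shYEATS2 library than in each shControl library by far more than the libraries of a group differed. NDUFA1, a small single-span membrane subunit encoded on the X chromosome, was at 445 and 361 CPM in shControl and 253 and 285 CPM in shYEATS2 (log2 fold change −0.59, SE 0.09, adjusted p = 3.7e-04). Its groups were separated, but its call was lost without shYEATS2 1 (log2 fold change −0.52, adjusted p = 0.17) and without shYEATS2 2 (log2 fold change −0.68, adjusted p = 0.30). NDUFA11, a membrane subunit, was at 7.67 and 5.93 CPM in shControl and 4.46 and 4.50 CPM in shYEATS2 (log2 fold change −0.61, SE 0.17, adjusted p = 0.0017). Its call was lost without shControl 1 (log2 fold change −0.41, adjusted p = 0.13) and with DESeq2 (adjusted p = 0.074). NDUFA13, also known as GRIM-19, was at 0.860 and 1.27 CPM in shControl and 0.553 and 0.679 CPM in shYEATS2, and its log2 fold change of −0.82 (SE 0.42) was not called.

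The 3 accessory subunits with the smallest changes were not called. NDUFA2, a subunit of the N module with a thioredoxin-like fold, was at 78.4 and 67.5 CPM in shControl and 72.1 and 68.6 CPM in shYEATS2 (log2 fold change −0.05, SE 0.07). NDUFV3, a small N-module subunit, was at 90.7 and 86.4 CPM in shControl and 80.4 and 84.6 CPM in shYEATS2 (log2 fold change −0.11, SE 0.07). NDUFB9, a subunit of the distal arm that belongs to the LYR protein family and pairs with the acyl carrier protein NDUFAB1, was at 376 and 344 CPM in shControl and 386 and 393 CPM in shYEATS2 (log2 fold change 0.11, SE 0.06, adjusted p = 0.11). Groups overlapped for NDUFA2. They were separated by less than 2 CPM for NDUFV3, and NDUFB9 was higher in both shYEATS2 libraries without passing the test. NDUFAB1 itself fell by 0.20 on the log2 scale (adjusted p = 0.024), a call that was lost in 5 of 13 alternatives, namely without shControl 1 (log2 fold change −0.13), without shYEATS2 1 (−0.09), after thinning to the smallest library (−0.13), with DESeq2 (−0.20) and under library totals alone (−0.06).

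Levels of the structural subunits differed widely, and genes that share bases with another gene had most of the lowest levels. In shControl, the level per kb of transcript ran from 1.11 CPM per kb for NDUFV2 to 958 CPM per kb for NDUFA1, although the subunits are present in the enzyme in about equal number. For 7 structural subunits (NDUFV2, NDUFA7, NDUFA9, NDUFA11, NDUFA13, NDUFB8 and NDUFC2), 74.0% to 100% of the coding bases also lie in exons of another gene on the same strand in GENCODE 44. This is a long non-coding gene for NDUFV2 and a read-through gene, such as NDUFC2-KCTD14, for the rest. Over all exonic bases, untranslated ones included, the largest such overlap of each gene was 9.65% (NDUFA11) to 33.8% (NDUFB8). HTSeq in its usual mode gives a read that lies on both such genes to neither, and 4.31% to 4.61% of the tallied read pairs were ambiguous in this sense. The median shControl level of the 7 was 2.04 CPM per kb, beside 115 CPM per kb for the other 30 structural subunits. The annotation and mode of the authors' counting are not given, and the part that shared bases have in these low levels was not tested. Among these 7 genes 3 fell (NDUFA9, NDUFA11 and NDUFC2) and 4 were not called. Of the 30 others, 25 fell, 0 rose and 5 were not called (median −0.33). Among these 30 the level ran from 9.84 CPM per kb for NDUFS1 to 958 CPM per kb for NDUFA1. NDUFS1 was thus below NDUFA11 (11.8 CPM per kb) and NDUFB8 (12.7 CPM per kb). Its transcript is 11660 bases long and that of NDUFA1 421 bases, so levels per kb also depend on the annotated length. Assembly factors ran from 4.33 CPM per kb for NDUFAF5 to 84.6 CPM per kb for NDUFAF8, with a median of 22.0 CPM per kb.

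**Figure D2:**
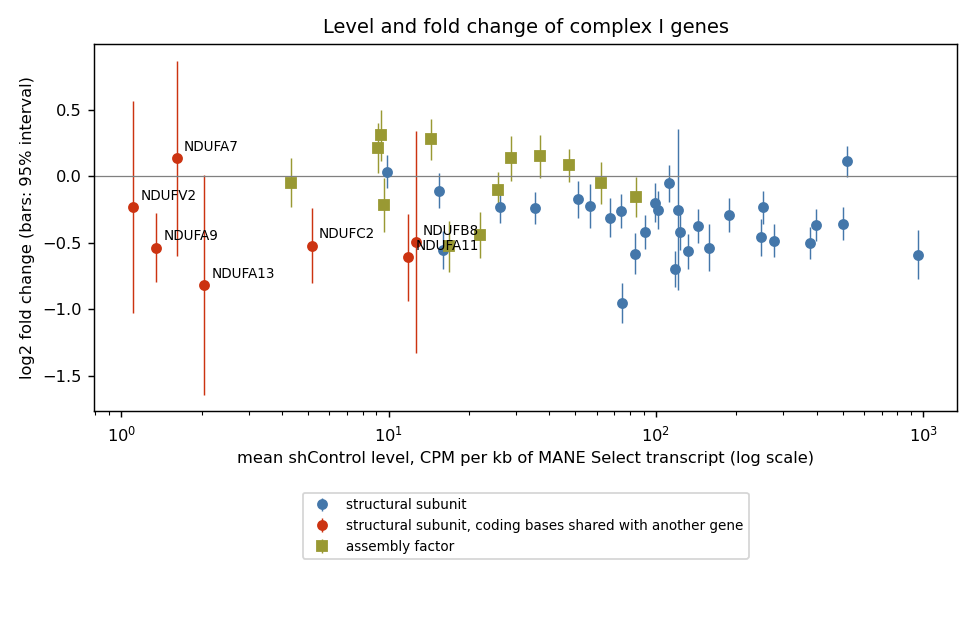
Log2 fold change (shYEATS2 against shControl) of the 37 structural subunits and 13 assembly factors against mean shControl level in CPM per kb of transcript. Levels are on a log scale, and bars are 95% intervals from edgeR's standard error under a normal distribution. The 7 subunits that share their coding bases with another gene (red, named) lie at the low end, from 1.11 to 12.7 CPM per kb, with wide intervals. The other structural subunits (blue) lie mostly below 0 at all levels, and assembly factors (squares) lie on both sides of 0.

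Assembly factors moved in both directions. NDUFAF1 (chromosome 15), ECSIT (chromosome 19), ACAD9 and TMEM126B form the MCIA complex, which builds a part of the membrane arm. NDUFAF1 was at 25.7 and 24.9 CPM in shControl and 17.2 and 18.2 CPM in shYEATS2 (log2 fold change −0.53, SE 0.10, adjusted p = 5.6e-06). ECSIT was at 35.4 and 37.2 CPM in shControl and 29.0 and 23.3 CPM in shYEATS2 (log2 fold change −0.44, SE 0.09, adjusted p = 2.6e-05). Both fell, with no overlap of the groups. ACAD9, related to the acyl-CoA dehydrogenases, was at 61.0 and 64.8 CPM in shControl and 58.9 and 58.2 CPM in shYEATS2 (log2 fold change −0.10, SE 0.07). TMEM126B was at 29.1 and 29.5 CPM in shControl and 34.2 and 29.4 CPM in shYEATS2 (log2 fold change 0.14, SE 0.09). The members of the MCIA complex thus had unequal values, with TMEM126B overlapping between the groups. TIMMDC1, a membrane protein that works beside it, was at 111 and 114 CPM in shControl and 120 and 118 CPM in shYEATS2 (log2 fold change 0.08, SE 0.06).

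Factors of the Q module gave the 2 rises. NDUFAF4 (chromosome 6) was at 34.4 and 34.8 CPM in shControl and 40.9 and 43.4 CPM in shYEATS2 (log2 fold change 0.28, SE 0.08, adjusted p = 0.0028). NDUFAF6 was at 16.5 and 17.3 CPM in shControl and 21.1 and 20.6 CPM in shYEATS2 (log2 fold change 0.31, SE 0.10, adjusted p = 0.0078). Neither overlapped between the groups, but both calls depended on single libraries. Without shControl 1 neither passed (adjusted p = 0.069 for NDUFAF4 and 0.14 for NDUFAF6), with log2 fold changes of 0.27 for both genes. NDUFAF6 also failed without shControl 2 (log2 fold change 0.33, adjusted p = 0.051), without shYEATS2 1 (0.28, adjusted p = 0.052), after thinning to the smallest library (0.29, adjusted p = 0.0501) and with DESeq2 (0.30, adjusted p = 0.12). NDUFAF3, the partner of NDUFAF4, was at 32.2 and 34.3 CPM in shControl and 38.0 and 35.5 CPM in shYEATS2 (log2 fold change 0.15, SE 0.08). NDUFAF7, a methyltransferase of complex I, was at 19.5 and 20.4 CPM in shControl and 22.5 and 24.2 CPM in shYEATS2 (log2 fold change 0.22, SE 0.10, adjusted p = 0.057). NDUFAF5, a hydroxylase that acts on NDUFS7, was at 23.0 and 24.1 CPM in shControl and 21.5 and 24.8 CPM in shYEATS2 (log2 fold change −0.05, SE 0.09). Its partner NDUFAF8 was at 49.6 and 46.0 CPM in shControl and 43.9 and 41.6 CPM in shYEATS2 (log2 fold change −0.16, SE 0.08, adjusted p = 0.090). NDUFAF3, NDUFAF7 and NDUFAF8 were each separated between the groups without passing the test, and NDUFAF5 overlapped.

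Late factors were not called. NDUFAF2, a relative of NDUFA12 that holds its place during assembly, was at 40.4 and 38.7 CPM in shControl and 36.2 and 41.0 CPM in shYEATS2 (log2 fold change −0.05, SE 0.08), with overlapping groups. FOXRED1 was at 19.2 and 18.4 CPM in shControl and 17.4 and 14.4 CPM in shYEATS2 (log2 fold change −0.21, SE 0.10, adjusted p = 0.085). Without shYEATS2 1, FOXRED1 and NDUFAF8 were called lower (log2 fold changes −0.40 and −0.22) and the count of assembly factors that fell was 4. Without shYEATS2 2 the count that rose was 4, with TMEM126B and NDUFAF3 called (log2 fold changes 0.22 and 0.19). The count of assembly factors called higher was 6 under library totals alone. The 7 further complex I assembly factors with other symbols gave 1 fall (DMAC2, −0.38) and 2 rises (COA1, 0.20, and TMEM186, 0.66). TMEM186, which joins the MCIA complex, was at 8.31 and 8.34 CPM in shControl and 13.5 and 12.6 CPM in shYEATS2 (adjusted p = 5.8e-06).

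NDUFA4 (chromosome 7), the complex IV subunit that the naming rule caught, was at 533 and 496 CPM in shControl and 317 and 324 CPM in shYEATS2. It fell by 0.68 on the log2 scale (SE 0.06, adjusted p = 6.2e-16), with no overlap of the groups. The subunits of the other respiratory complexes were read from lists of nuclear genes. Of complex II, 3 of 4 fell (median −0.47), of complex III 7 of 9 (median −0.33), of complex IV 9 of 10 (median −0.65) and of complex V, the ATP synthase, 14 of 17 (median −0.44). None of these 40 genes rose. The gene with the largest change and a mean of at least 10 CPM was SDHD for complex II (log2 fold change −0.52), UQCRC2 for complex III (−0.59), COX6B1 for complex IV (−0.88) and ATP5MC3 for complex V (−0.80). For the assembly factors of these complexes 8 of 35 tested genes fell (22.9%), 9 rose (25.7%) and the median was 0.07, shares near the 23.6% and 22.6% of all tested genes. COX19, a copper-related assembly factor of complex IV, rose from 21.5 and 20.1 CPM to 38.2 and 39.0 CPM (log2 fold change 0.89, SE 0.09). No test of the difference between subunits and assembly factors of complexes II to V was made.

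**Figure D3:**
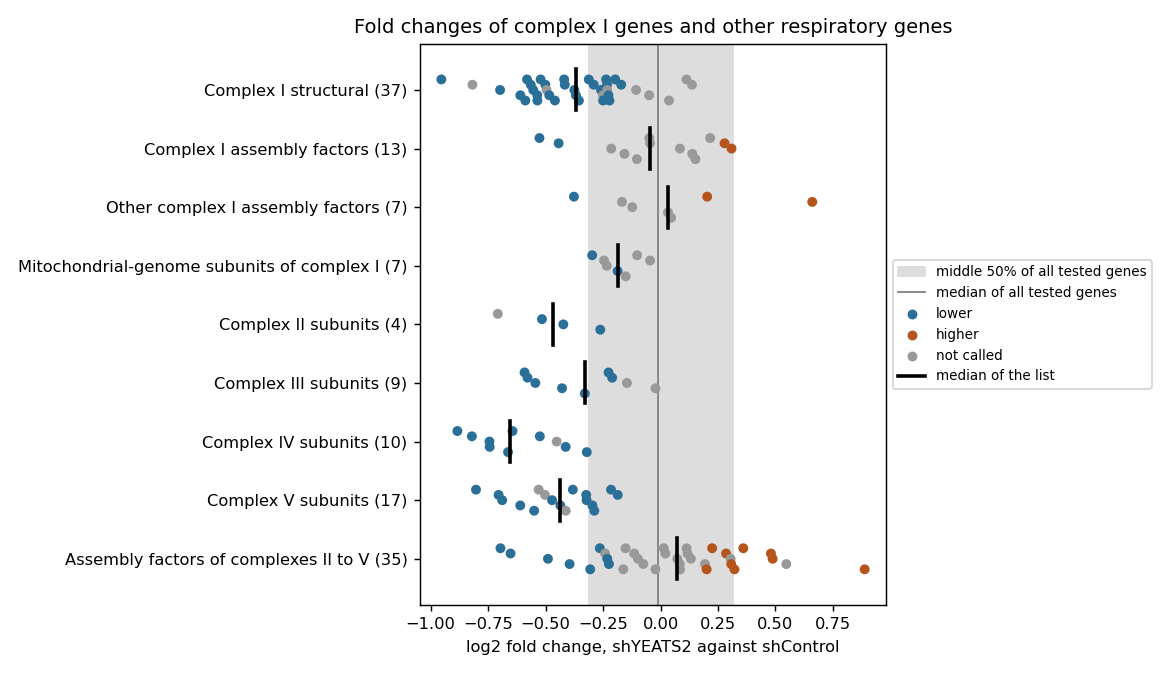
Log2 fold change (shYEATS2 against shControl, horizontal axis) of every tested gene in each list of respiratory genes (vertical axis, number tested in brackets). Each point is a gene, coloured by its call in edgeR's test at an adjusted p under 0.05, the black line is the median of the list, and the grey band holds the middle 50% of all tested genes. Medians run from −0.65 for complex IV subunits to 0.07 for the assembly factors of complexes II to V, and no structural subunit list holds a gene called higher.

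Of the 7 subunits of complex I that are encoded by mitochondrial DNA, 2 fell (28.6%) and 0 rose, a share of falls near the 23.6% of all tested genes. MT-ND1 fell by 0.19 (adjusted p = 0.022) and MT-ND2 by 0.30 (adjusted p = 0.021) on the log2 scale, and the other 5 were not called. All 7 log2 fold changes were negative, with a median of −0.19 and the highest at −0.05, for MT-ND5. All 7 genes were lower in shYEATS2 1 than in shYEATS2 2. MT-ND1 was at 2872 and 2870 CPM in shControl, 2273 CPM in shYEATS2 1 and 2775 CPM in shYEATS2 2. MT-ND5 was at 3075 and 3235 CPM in shControl, 2736 CPM in shYEATS2 1 and 3381 CPM in shYEATS2 2. For 4 of the 7 both shYEATS2 values lay below both shControl values, beside 36.3% of all tested genes. MT-ND2 was at 4328 and 4857 CPM in shControl and 3338 and 4139 CPM in shYEATS2, groups that did not overlap. Its call was lost without shControl 2 (log2 fold change −0.22, adjusted p = 0.065), with DESeq2 (adjusted p = 0.16), with length and GC offsets (adjusted p = 0.14) and under library totals alone (adjusted p = 0.11). Counts on all mitochondrial genes made up 11.3% and 11.6% of the shControl libraries, 9.14% of shYEATS2 1 and 10.7% of shYEATS2 2. The part that this share has in the mitochondrial fold changes was not tested. The difference between nuclear and mitochondrial subunits was not tested.

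Regulators of nuclear respiratory genes moved in both directions, with 3 of 10 lower and 3 of 10 higher, shares not far from the 23.6% and 22.6% of all tested genes. PPARGC1B, a coactivator of mitochondrial biogenesis, fell from 50.8 and 51.5 CPM to 32.8 and 37.8 CPM (log2 fold change −0.55, SE 0.08). YY1 fell by 0.30 and TFAM, which packages and transcribes mitochondrial DNA, fell by 0.23 on the log2 scale. NRF1 itself rose by 0.37, TFB2M by 0.32 and PPRC1 by 0.29. GABPA, the ETS-family subunit of GABP, had a log2 fold change of −0.14 and was not called, and PPARGC1A was below 1 CPM in every library.

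Of the 28 structural calls, 13 stayed under each of 13 other ways of scaling, filtering and testing the counts or of leaving out a library, and all 28 kept their sign. These 13 were NDUFV1, NDUFS3, NDUFS4, NDUFS5, NDUFS6, NDUFS7, NDUFS8, NDUFA5, NDUFA6, NDUFA8, NDUFA12, NDUFB2 and NDUFB10. The falls of NDUFAF1 and ECSIT stayed under all 13, and the rises of NDUFAF4 and NDUFAF6 did not. With DESeq2 23 structural subunits fell, and without shControl 1, the deepest library, 20 did.

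**Figure D4:**
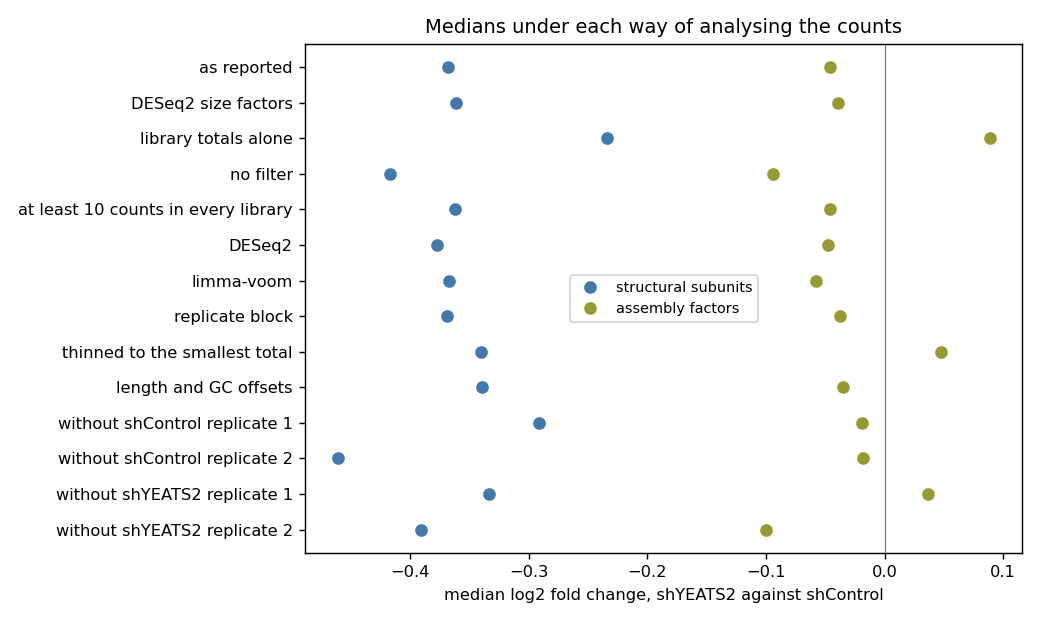
Median log2 fold change (shYEATS2 against shControl, horizontal axis) of the 37 structural subunits (blue) and 13 assembly factors (green) under each way of analysing the counts (vertical axis). The structural median stays between −0.46 and −0.23, and that of the assembly factors between −0.10 and 0.09, with the structural median the lower of the pair in every row.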

How the data were processed

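RNA was measured in 4 libraries of BICR10 cells. Per the labels, poly(A) RNA was made into stranded libraries and sequenced as read pairs, and the submitters' processing notes name FastQC, STAR, HTSeq and GRCh38. The deposited values are raw counts of read pairs per Ensembl gene made by the authors with HTSeq, without normalization. The annotation release and strand setting are not given in the sources used here. Tallies of reads given to no gene (15.3% to 16.5% of a library) were left out.

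Genes passing edgeR's filterByExpr (17058 of 60623) were scaled with TMM. The test was the quasi-likelihood test of edgeR 4.0.16 (robust glmQLFit) in R 4.3.3, with Benjamini-Hochberg adjustment over all of them and a threshold of 0.05. The SE is the absolute log2 fold change over the root of F and gives the 95% intervals under a normal distribution. These intervals do not use the degrees of freedom of the test and can be too narrow where those are few. The edgeR, DESeq2 and limma-voom fits were tried on simulated counts with the same spread for every gene. Uneven spread between genes and shared gene models were not covered by that trial. With 2 libraries a group, an exact permutation test cannot go below a two-sided p of 0.333. Libraries of a group differed by more than counting noise (chi-square per degree of freedom 5.95 in shControl and 5.39 in shYEATS2). Positions, transcript lengths and overlapping gene models came from GENCODE 44 (GRCh38). Sequences came from RefSeq.

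One member is counted in the totals and not reported singly here. Named with values in every library were the other nuclear core subunits, the 5 accessory subunits with the largest and the 3 with the smallest absolute log2 fold change, all assembly factors, NDUFA4, YEATS2 and, of each other list, the gene with the largest absolute change and a mean of at least 10 CPM, which no squamous, endothelial or leukocyte marker met. KRT5, CDH1, VIM, THY1, NDUFA9, NDUFA5, NDUFAB1, MT-ND1, MT-ND5, DMAC2, COA1 and the regulators other than PPARGC1B were named after their values were seen. The members and lists were chosen with earlier results of these data known. Alternatives were other scalings, filters and tests (DESeq2 1.42.0, limma-voom from limma 3.58.1), a replicate block, thinning, length and GC offsets, a threshold of 0.01, NDUFA4 counted as structural and each library left out.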

Additional observations from a re-analysis of the deposited data

How the results depend on the processing

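The fall of the structural subunits kept its direction under every alternative tried. The count of structural subunits called lower was 28, ranged from 19 (library totals alone) to 29 over the alternatives fitted to all 4 libraries, and from 20 to 28 with a library left out. The count called higher was 0, with 2 under library totals alone (NDUFS1 and NDUFB9), 1 with length and GC offsets (NDUFB9) and 0 with every library left out in turn. With DESeq2 it was 0 as well. The structural median of −0.37 was −0.23 under library totals alone and ran from −0.46 to −0.29 with a library left out. The difference between the structural and assembly medians of −0.32 ran from −0.44 to −0.27 with a library left out. The median of the assembly factors, −0.05, changed sign to 0.089 under library totals alone and to 0.047 after thinning to the smallest library, and ran from −0.10 to 0.037 with a library left out. The count of assembly factors called higher, 2, was 6 under library totals alone, 1 with DESeq2 and 1 after thinning, and ran from 0 to 4 with a library left out, and the count called lower ran from 2 to 4. Library totals alone moves all genes upward, and the cause of the other changes was not tested.

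The labels number the libraries and do not say whether those of the same number were made together. Differences between libraries 1 and 2 had a correlation of −0.018 between the groups over 17058 genes and 0.065 over the members. No shared effect of the library number was thus seen, which does not settle whether the groups are paired. With the replicate block 29 structural subunits were called lower, the added one being NDUFB8 (log2 fold change −0.51), and the assembly counts were 2 and 2. Leaving out the 7 subunits that share their coding bases with another gene, an alternative chosen after seeing the data, left 25 called lower and a difference between the medians of −0.29.

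Log2 fold changes that were not called changed sign in some fits. Under library totals alone NDUFV3 was at 0.028, NDUFA2 at 0.084, NDUFAF2 at 0.085, NDUFAF5 at 0.089 and ACAD9 at 0.032. Without a filter NDUFS1 was at −0.012, and after thinning NDUFAF5 was at 0.047. With a library left out, NDUFV2 ran from −0.58 to 0.21, NDUFA2 from −0.16 to 0.057, NDUFA7 from −0.018 to 0.28, NDUFB1 from −0.50 to 0.064, NDUFB8 from −0.87 to 0.028, NDUFAF2 from −0.13 to 0.037, NDUFAF5 from −0.14 to 0.058 and TMEM126B from −0.0091 to 0.22. NDUFB1 and NDUFB8 were called lower without shControl 2. The shallowest library, shYEATS2 2, held 11334133 counts on genes, which limits the genes with the fewest counts most, such as NDUFV2 with 13 counts there.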
